A study of Mus musculus with 4 samples.

Results

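The cAMP phosphodiesterases are the enzymes that break down cyclic AMP. Of this family, 7 genes of the 32285 counted were taken by name: Pde2a, Pde3b, Pde4a, Pde4b, Pde4d, Pde7a and Pde8a. All 7 are in the count tables. Their counts of unique molecular identifiers (UMIs, 1 per captured transcript) were summed for each mouse, tissue and cell class and are given in CPM, the count scaled to a fixed total of all UMIs of that class. The chemistry tags only the 3′ end of a transcript, so CPM is not divided by gene length, and levels of different genes are not ranked against each other.

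Cyclic AMP is made by adenylyl cyclases when a hormone, adenosine or prostaglandin receptor couples to Gs, and it activates protein kinase A. Kinase A switches off the salt-inducible kinases, which otherwise hold the CRTC coactivators in the cytoplasm. Free CRTC proteins enter the nucleus and act with CREB at cAMP response elements, and Crem is a classical target of that arm. The phosphodiesterases end the signal: Pde4 enzymes are specific for cAMP and are the targets of rolipram-type anti-inflammatory drugs, Pde3b also binds cGMP and is activated by insulin signalling, Pde2a is stimulated by cGMP, and Pde7a and Pde8a are cAMP-specific enzymes that rolipram does not block.

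The mice were B6 mice bearing the tumour that the labels call BeCon, in a study of ovarian cancer. They received YKL-05-099, an inhibitor of the salt-inducible kinases, or vehicle. All groups carried the tumour and no tumour-free mice were used here. The dose, the schedule and the age of the animals are not given in the sources used here. Sorting took viable cells carrying both CD45 and MHC class I from ascites, spleen and peripheral blood. Each mouse and tissue carried a hashtag antibody, and hashtagged cells were pooled into 1 ascites library and 1 library of spleen and blood. Ascites came from 4 vehicle mice and 4 treated mice. Spleen and blood came from vehicle mice 1 to 3 and treated mice 2 to 4. The mouse is the replicate, and the classes of a tissue come from the same mice.

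Of 13688 ascites barcodes, 6419 passed the filters and carried 1 clear hashtag, and 6015 of these were gated to a class by marker transcripts. For spleen and blood these numbers were 14792, 6741 and 6525. The median depth of assigned cells was 8310 UMIs in ascites and 5987 UMIs in spleen and blood, and 10 barcodes occurred in both libraries. The gate asks for a score lead of 0.05 over the next class, and the lead of 748 assigned cells of ascites and 312 of spleen and blood lay within 0.05 of that cut. No member gene is among the markers used for gating. The leading genes included Ms4a1 and Cd79a in ascites B cells and Xcr1 in type 1 conventional dendritic cells (cDC1), which are markers of those classes. The CD4 T cells and the T cells without Cd4 or Cd8 UMIs of spleen and blood had 0 of their own listed markers among their 10 leading genes, and the latter had 1 marker of another class there. Macrophage transcripts were found in other ascites classes. The median ascites B cell held 22 UMIs of its own markers and 14 of macrophage markers, and the median ascites CD8 T cell 15 and 14. The 10 macrophage markers summed to 2976 to 4634 CPM in ascites B cells of vehicle mice and 3289 to 3561 CPM in those of treated mice, against 36309 to 43500 and 22463 to 30084 CPM in macrophages. Their part in the results on ascites lymphocytes was not tested.

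In the GENCODE annotation of GRCm38 (mm10), Pde2a (ENSMUSG00000110195) lies at chr7:101421691-101512827, Pde3b (ENSMUSG00000030671) at chr7:114415281-114539251 and Pde8a (ENSMUSG00000025584) at chr7:81213596-81334533, all on the plus strand. Pde4a (ENSMUSG00000032177) lies at chr9:21165714-21213248, Pde4b (ENSMUSG00000028525) at chr4:102087543-102607259 and Pde4d (ENSMUSG00000021699) at chr13:108449948-109953461, also on the plus strand. Pde7a (ENSMUSG00000069094) lies on the minus strand at chr3:19223108-19311322, where it overlaps the counted gene Gm16093 on the other strand. The counts are per gene and do not separate transcripts that start at different promoters.

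Promoter windows of 300 bases, from 250 before to 50 after an annotated start, were read from the RefSeq table of GRCm38.p6 because the study inhibits kinases that act through CREB. The table held 14 windows for 5 members. It held none for Pde3b or Pde7a, so these were not searched. The cAMP response element was searched as its full site TGACGTCA and as its short site, TGACG or CGTCA, on both strands, and each full site contains the short site. A short site was found in 4 of the 14 windows, 1 each for Pde2a, Pde4a, Pde4b and Pde8a, and a full site in 0. Of all 32851 windows, 20.81% hold a short site and 1.79% a full site. The windows below are those of 3 members that changed with treatment, with the short site in capitals. That of Pde4b, 1 of its 4 windows, at chr4:102421305-102421604 (plus strand), has its short site at position -34 from the start. That of Pde8a, at chr7:81213015-81213314 (plus strand), has it at -84. The window of Pde4d, at chr13:108653927-108654226 (plus strand), holds no match. A match is a description of the sequence and not a measured binding site.
Pde4b: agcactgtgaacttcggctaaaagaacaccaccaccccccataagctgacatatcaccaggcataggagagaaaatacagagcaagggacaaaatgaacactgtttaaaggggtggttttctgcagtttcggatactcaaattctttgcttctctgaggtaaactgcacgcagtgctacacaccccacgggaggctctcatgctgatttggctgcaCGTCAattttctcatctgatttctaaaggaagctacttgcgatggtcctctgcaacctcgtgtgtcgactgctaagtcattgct
Pde8a: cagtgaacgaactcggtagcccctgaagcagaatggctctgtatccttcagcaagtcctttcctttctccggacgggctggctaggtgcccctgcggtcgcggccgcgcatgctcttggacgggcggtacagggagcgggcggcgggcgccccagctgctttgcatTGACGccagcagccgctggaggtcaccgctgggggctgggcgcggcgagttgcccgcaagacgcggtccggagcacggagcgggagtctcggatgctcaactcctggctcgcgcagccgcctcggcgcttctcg
Pde4d: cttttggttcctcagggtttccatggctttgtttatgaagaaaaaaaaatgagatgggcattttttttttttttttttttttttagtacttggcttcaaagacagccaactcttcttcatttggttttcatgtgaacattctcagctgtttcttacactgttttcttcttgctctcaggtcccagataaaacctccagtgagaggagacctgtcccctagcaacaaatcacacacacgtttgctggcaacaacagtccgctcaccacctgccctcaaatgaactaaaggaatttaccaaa

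In vehicle mice the level of each member was ordered over 15 tissue and class combinations with at least 2 mice of 20 or more cells. Pde4b, an inducible cAMP-specific enzyme, was highest in ascites neutrophils, at 481 ± 189.8 CPM (mean ± SD, n = 4). Migratory dendritic cells followed at 281 CPM, type 2 conventional dendritic cells (cDC2) at 256 CPM and ascites B cells at 204 CPM. The mice of neighbouring combinations overlapped down to blood B cells at 95.7 CPM, where a gap separated them from blood T cells at 40.7 CPM. Spleen T cells (25.7 CPM) and spleen plasma cells (16.1 CPM) were lowest, again with a gap between them.

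Pde3b was highest in the lymphocytes of ascites, with 175 CPM in natural killer (NK) cells, 152 CPM in B cells and 144 CPM in T cells, whose mice overlapped. A gap separated these from spleen T cells at 85.9 CPM. The next combinations overlapped in turn down to cDC2 at 23.99 CPM, and plasma cells lay below them at 5.42 CPM. Pde2a peaked in ascites NK cells at 243 CPM (n = 2), above ascites T cells at 127 CPM. The levels of blood NK cells, ascites B cells, macrophages and neutrophils overlapped between 90.6 and 67.2 CPM. In blood non-classical monocytes of vehicle mice, 0 of 426195 UMIs were Pde2a, which allows a level of up to 7.04 CPM by counting error alone.

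Pde7a was higher in B, T and NK cells than in myeloid classes. Its means in B, T and NK cells of the 3 tissues lay between 62.1 and 98.7 CPM, and those in myeloid classes between 13.1 and 29.9 CPM, with no overlap between spleen B cells, the lowest of the former, and the next class. Spleen plasma cells, which descend from B cells, lay lowest of all, at 11.5 CPM. Pde4d was highest in ascites T cells at 48.9 ± 28.2 CPM (n = 4), where the mice ranged from 10.3 to 71.6 CPM, and was at most 18.95 CPM elsewhere. Pde8a reached 23.5 CPM in neutrophils and 18.9 CPM in ascites B cells, and Pde4a 16.9 CPM in ascites NK cells. For Pde4a and Pde8a every pair of neighbours in the order overlapped. Ascites and the other tissues are in different libraries, so tissue and library cannot be told apart in these orders.

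**Figure D1:**
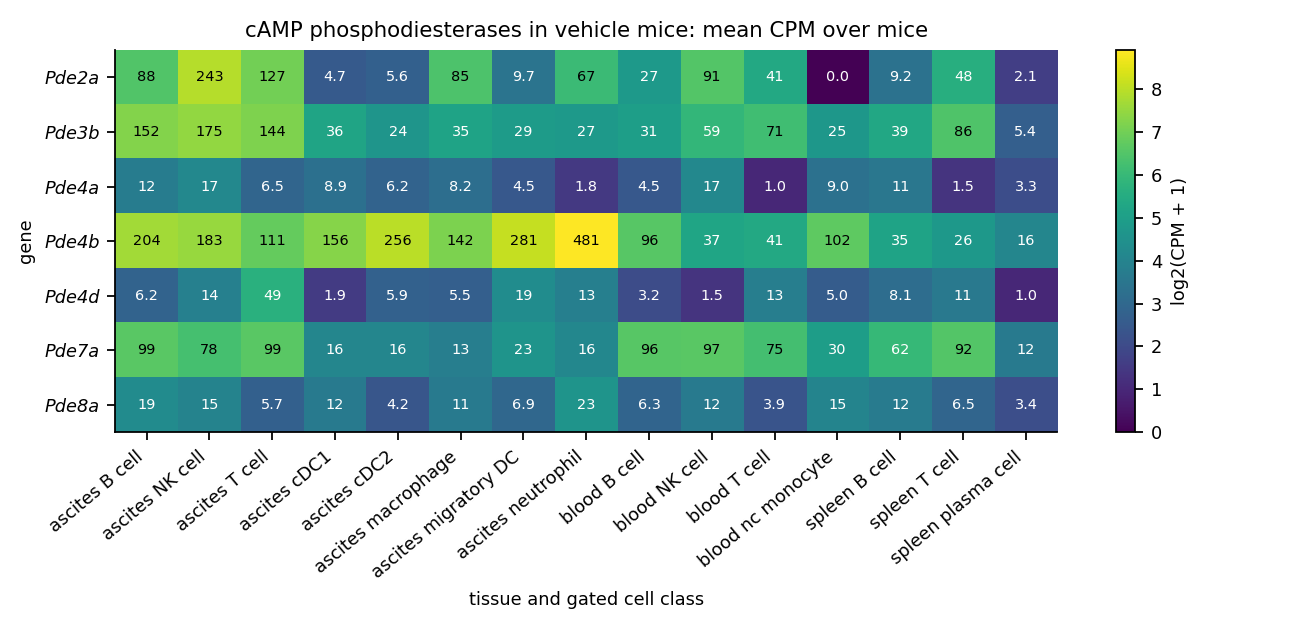
Mean CPM (printed in each cell; colour is log2(CPM + 1)) of the 7 genes in vehicle mice, by tissue and gated class. Pde4b peaks in ascites neutrophils, Pde3b and Pde2a in ascites NK cells, and Pde7a is higher in B, T and NK cells than in myeloid classes and lowest in spleen plasma cells.

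Treatment was tested in 13 classes with at least 2 mice of 20 cells in each arm, 7 in ascites, 2 in spleen and 4 in blood. Of the 91 combinations of member and class, 55 had enough counts for edgeR's quasi-likelihood test. In 14 of them the member was higher in treated mice at an adjusted p under 0.05 over all genes of the class, in 1 it was lower and in 40 it did not pass. Ascites gave 9 higher and 1 lower of 30, spleen 3 higher of 13 and blood 2 higher of 12.

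The share of all genes called in each class is the background for these counts. The members were chosen with earlier results of these data known, so the comparison is a description and not a test. In ascites B cells 3.79% of genes were higher and 4.92% lower, and 3 of 6 members tested were higher. In cDC1 8.5% of genes were higher and 8.98% lower, with 2 of 5 members higher. In cDC2 4.47% of genes were higher and 5.87% lower, with 1 of 3 members higher, and in migratory dendritic cells 5.27% of genes were higher and 4.87% lower, with 1 of 3 higher. In ascites macrophages 10.6% of genes were higher and 11.3% lower, with 2 of 7 members higher and 1 lower. In ascites T cells 0.46% of genes were higher and 0.353% lower, and in neutrophils 1.54% of genes were higher and 0.702% lower, with 0 of 5 and 0 of 1 members called.

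In spleen B cells 2.34% of genes were higher and 2.04% lower, with 2 of 7 members higher, and in spleen T cells 0.72% of genes were higher and 1.2% lower, with 1 of 6 higher. In blood B cells 0.562% of genes were higher and 0.415% lower, with 2 of 4 members higher. In blood T cells 0.0879% of genes were higher and 0.022% lower, in NK cells 0.316% of genes were higher and 0.141% lower and in non-classical monocytes 0.549% of genes were higher and 0.235% lower, with 0 of 4, 0 of 3 and 0 of 1 members called. In the macrophages and cDC1 of ascites, calls were frequent over all genes, and in the classes of blood they were rare. The median log2 difference of the members tested ran from 0.01 in migratory dendritic cells to 0.34 in ascites B cells, beside medians of all genes from -0.01 to 0.01.

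**Figure D2:**
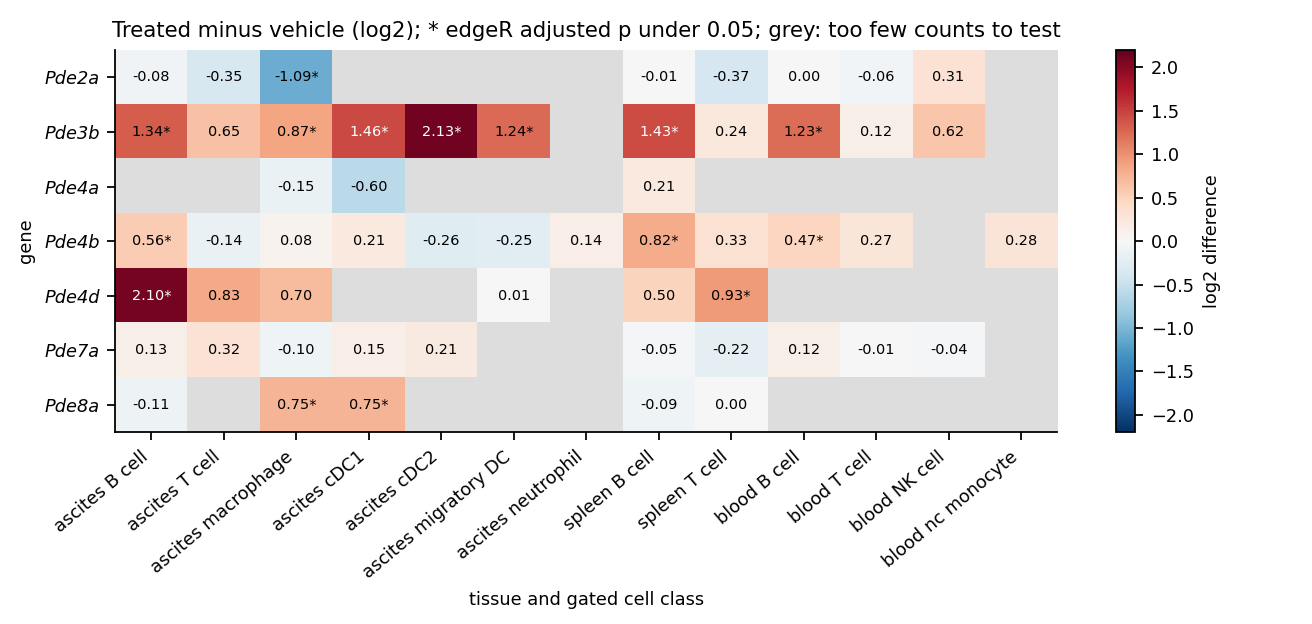
Log2 difference, treated minus vehicle, of the 7 genes (rows) in the 13 tissue and class combinations (columns). A star marks an edgeR adjusted p under 0.05 over all genes of the class and grey marks too few counts to test. Pde3b holds 7 of the 15 starred cells and Pde2a in ascites macrophages is the starred cell below 0.

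Pde3b, the phosphodiesterase that insulin signalling activates, rose in B cells of all 3 tissues. In ascites B cells its level was 144, 135, 166 and 164 CPM in vehicle mice 1 to 4 and 405, 410.5, 446 and 389 CPM in treated mice 1 to 4. The lowest treated mouse lay well above the highest vehicle mouse. The fold was 2.53 (95% interval 2.16 to 2.95), a log2 difference of 1.34 ± 0.11 (SE) with an edgeR adjusted p of 7.87e-12.

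Spleen B cells held 46.6, 28.2 and 43.6 CPM in vehicle mice 1 to 3 and 106, 105 and 88.8 CPM in treated mice 2 to 4, a log2 difference of 1.43 ± 0.13 (edgeR adjusted p = 2.44e-09). Blood B cells held 30.9, 31.9 and 29.2 CPM in vehicle mice 1 to 3 and 71.6, 81.2 and 61.5 CPM in treated mice 2 to 4, a log2 difference of 1.23 ± 0.16 (edgeR adjusted p = 5.46e-09). The arms did not overlap in either tissue. With cells limited to at most 5% mitochondrial UMIs, 225 of 1853 spleen B cells and 265 of 1491 blood B cells were left, and the log2 differences of 1.42 and 1.29 no longer passed (edgeR adjusted p = 0.0882 and 0.414). The effect in spleen minus that in ascites was 0.13 ± 0.18 in log2 (edgeR adjusted p = 0.849), and that in blood minus that in spleen was -0.16 ± 0.21 (edgeR adjusted p = 0.876). Of all genes, 3.31% and 0.915% were called in these tests of a difference.

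Within B cells the summed level differed between clusters. The CPM of a cluster pools the cells of an arm over mice and has no spread between mice. Differences between clusters were not tested. Nearly all treated ascites B cells, 370 of 381, lay in cluster 0, led by Fcer2a, Ighd and Cr2, where Pde3b was 199 CPM in vehicle and 413 CPM in treated cells. Vehicle B cells also held 197 cells of cluster 13, led by Jchain and Igkc, at 96.2 CPM, against 11 such cells in treated mice. In cluster 0 alone, an alternative added after seeing the data, the log2 difference was 1.11. In blood, cluster 9, led by Vpreb3 and Sox4, held 25.4 CPM in vehicle and 27.1 CPM in treated cells, from 11 UMIs in each arm. Cluster 0 of the blood went from 33.7 to 80.1 CPM. Cluster 1 of the blood alone had a log2 difference of 1.26 that did not pass (edgeR adjusted p = 0.0816). In spleen the same cluster 9 held 30.6 and 78.4 CPM, from 6 and 29 UMIs. Cluster 6 of the spleen, led by Adm and Bhlhe41, had the smallest spleen difference tested, 0.82 in log2, which did not pass (edgeR adjusted p = 0.385).

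Pde3b also rose in the antigen-presenting cells of ascites. In cDC1, which cross-present antigen to CD8 T cells, it stood at 32.7, 31.7, 38.7 and 38.9 CPM in vehicle mice 1 to 4 and 112, 103, 95.3 and 88.9 CPM in treated mice 1 to 4, a log2 difference of 1.46 ± 0.14 (edgeR adjusted p = 2.64e-10). In cDC2 it stood at 18.02, 16.7, 25.7 and 35.5 CPM in vehicle mice 1 to 4 and 91.8, 127, 109 and 83.9 CPM in treated mice 1 to 4, a log2 difference of 2.13 ± 0.21 (edgeR adjusted p = 2.83e-08). Arms did not overlap in either class, and the fold in cDC2 was 4.36 (95% interval 3.26 to 5.84).

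Migratory dendritic cells, the Ccr7-expressing cells that carry antigen to lymph nodes, held 38.3, 21.04 and 26.3 CPM in the 3 vehicle mice with enough cells and 65.1, 73.6, 61.7 and 68.8 CPM in the 4 treated mice. The log2 difference was 1.24 ± 0.29 (edgeR adjusted p = 0.00356). Macrophages held 30.4, 31.6, 35.2 and 44.2 CPM in vehicle mice 1 to 4 and 72.05, 50.9, 54.01 and 86.4 CPM in treated mice 1 to 4, a log2 difference of 0.87 ± 0.17 (edgeR adjusted p = 0.00408). The arms did not overlap in these 2 classes either, although the macrophages of treated mice 2 and 3 lay close to the highest vehicle mouse. The calls of Pde3b in these 4 classes and in ascites B cells passed under every alternative setting that gave a value.

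In T cells and NK cells Pde3b did not pass the test. Ascites T cells held 133, 136, 135 and 172 CPM in vehicle mice 1 to 4 and 199.6, 274, 191 and 276 CPM in treated mice 1 to 4, without overlap, at a log2 difference of 0.65 ± 0.17 (edgeR adjusted p = 0.0719). This one passed without the filter on low counts (edgeR adjusted p = 0.0119) and without the 5% of cells with the most UMIs (0.0126). Spleen T cells held 78.6, 80.5 and 98.5 CPM in vehicle mice 1 to 3 and 97.2, 109 and 110.2 CPM in treated mice 2 to 4, with overlap, at 0.24 ± 0.12 in log2 (edgeR adjusted p = 0.474).

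Blood T cells held 67.6, 64.1 and 80.7 CPM in vehicle mice 1 to 3 and 82.03, 58.6 and 95.04 CPM in treated mice 2 to 4, with overlap, at 0.12 ± 0.21 in log2 (edgeR adjusted p = 0.946). Blood NK cells held 45.9, 79.7 and 50.8 CPM in vehicle mice 1 to 3 and 91.8, 94.8 and 75.3 CPM in treated mice 2 to 4, also with overlap, at 0.62 ± 0.33 in log2 (edgeR adjusted p = 0.79). In 2 classes the counts were too few to test: ascites neutrophils held 36.4, 40.8, 31.9 and 0 CPM in 4 vehicle mice and 172 and 78.8 CPM in 2 treated mice, and blood non-classical monocytes 16.5, 25.1 and 34.4 CPM in 3 vehicle and 65.6 and 53.8 CPM in 2 treated mice. These untested classes rest on 13 and 14 UMIs, and 11 and 17 UMIs, in the vehicle and treated arms.

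The difference between classes was itself tested. In spleen the effect on Pde3b in B cells differed from that in T cells (edgeR adjusted p = 1.68e-05, where 1.47% of all genes were called). It kept its call without each mouse in turn but not at 5% mitochondrial UMIs or fewer (0.104). The effects on Pde3b in the 7 ascites classes also differed (edgeR adjusted p = 0.00052, with 14.5% of all genes called), without each mouse in turn as well. In blood the test over 4 classes gave an edgeR adjusted p of 0.0506, with 1.08% of all genes called.

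The effects in T cells were compared across tissues in the same way, with ascites samples fitted as independent of those of spleen and blood. For Pde3b the effect in spleen minus that in ascites was -0.39 ± 0.22 in log2 (edgeR adjusted p = 0.858), that in blood minus that in ascites was -0.57 ± 0.28 (0.719) and that in blood minus that in spleen was -0.13 ± 0.24 (0.978). Of all genes, 0.0226%, 0.0311% and 0.31% were called in these tests. Pde4d, whose call was in spleen T cells, had an effect in spleen minus that in ascites of 0.13 ± 0.37.

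**Figure D3:**
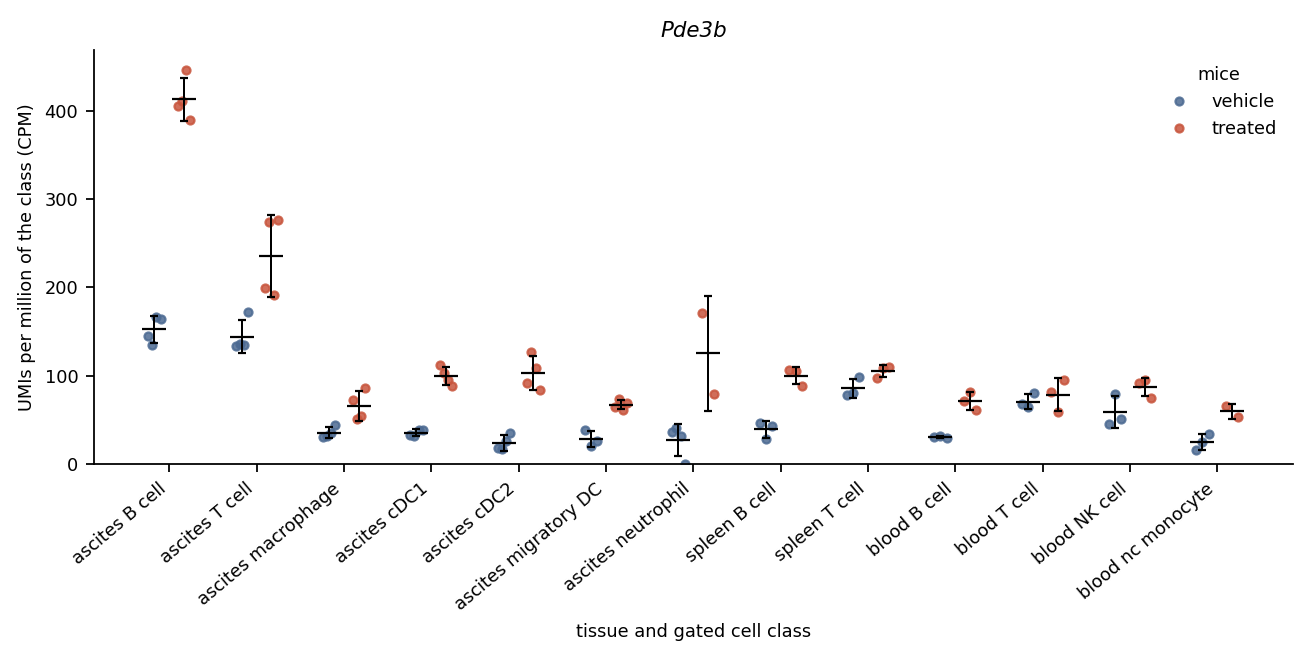
Pde3b in CPM (y axis from 0), 1 point per mouse, by tissue and class. Bars give the mean and SD over mice. In ascites B cells the treated mice sit between 389 and 446 CPM and the vehicle mice between 135 and 166 CPM, while the arms overlap in blood T cells.

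The same counts were read as a share of cells with a Pde3b UMI, with every cell thinned to 2000 UMIs and shallower cells were left out. In ascites B cells the share was 24.7% in vehicle (808 of 825 cells kept) and 53.9% in treated mice (371 of 381 kept), against 45.3% and 76.7% before thinning. The median depths of these cells, averaged over mice, were 4014 and 3887 UMIs. No class is known to lack Pde3b. The lowest thinned share in the same library was 4.06% in vehicle migratory dendritic cells, of median depth 11654 UMIs (24.4% before thinning). The thinned share went from 4.54% to 20.2% in cDC1, from 5.37% to 18.7% in cDC2, from 8.24% to 18.9% in spleen B cells and from 5.43% to 13.3% in blood B cells. Unthinned shares in these classes were 45.8% and 79.1%, 28.3% and 76.5%, 21.2% and 45.3%, and 14.1% and 26.9%.

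Pde4b, the family member that limits cAMP in activated leukocytes, rose in B cells of the 3 tissues. Ascites B cells held 232, 191, 214 and 180.00 CPM in vehicle mice 1 to 4 and 314, 257, 314 and 349.7 CPM in treated mice 1 to 4, a log2 difference of 0.56 ± 0.12 (edgeR adjusted p = 0.000703). Spleen B cells held 32.5, 41.1 and 30.8 CPM in vehicle mice 1 to 3 and 58.3, 49.8 and 69.6 CPM in treated mice 2 to 4, a log2 difference of 0.82 ± 0.14 (edgeR adjusted p = 0.000108). In neither tissue did the arms overlap. At 5% mitochondrial UMIs or fewer, 360 of 1206 ascites B cells remained and neither call passed, at log2 differences of 0.62 and 1.35 (edgeR adjusted p = 0.0593 and 0.171). Taken alone, in fits added after seeing the data, ascites cluster 0 and spleen clusters 1 and 2 passed. Spleen cluster 0, at 0.88 in log2, and spleen cluster 6, at 0.23, did not (edgeR adjusted p = 0.185 and 0.883).

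Blood B cells held 97.7, 89.4 and 99.98 CPM in vehicle mice 1 to 3 and 129, 147 and 119 CPM in treated mice 2 to 4, a log2 difference of 0.47 ± 0.11 (edgeR adjusted p = 0.00537). Vehicle and treated mice were separate, but the call rested on treated mouse 3, without which the difference was 0.39 (edgeR adjusted p = 0.155). It was also lost with HTODemux hashtag calls (edgeR adjusted p = 0.103), with DESeq2's Wald test (0.0543) and at 5% mitochondrial UMIs or fewer (a log2 difference of 0.23, edgeR adjusted p = 0.923). No blood cluster passed alone: the log2 differences were 0.49 in cluster 0, 0.71 in cluster 1 and 0.51 in cluster 9 (edgeR adjusted p = 0.0984, 0.317 and 0.776).

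In the other 9 classes tested Pde4b did not pass. Ascites neutrophils, its highest class, held 452, 522, 245 and 704 CPM in vehicle mice and 477 and 568 CPM in 2 treated mice, at a log2 difference of 0.14 ± 0.35, whose 95% interval in fold runs from 0.688 to 1.76. Macrophages held 169.8, 137, 111 and 148 CPM in vehicle mice 1 to 4 and 155, 145, 151 and 143 CPM in treated mice 1 to 4, with a fold of 1.06 (95% interval 0.902 to 1.24). The mean of migratory dendritic cells was 281 ± 38.7 CPM in vehicle and 239 ± 4.88 CPM in treated mice, and that of cDC2 256 ± 47.3 and 214 ± 41.00 CPM, both with overlap. For cDC1 the means were 156 ± 34.1 and 187 ± 22.2 CPM.

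T cells held 111 ± 19.4 and 106 ± 11.8 CPM of Pde4b in ascites, 25.7 ± 5.59 and 33.9 ± 8.83 CPM in spleen and 40.7 ± 17.2 and 51.4 ± 6.26 CPM in blood. Tests of whether the effect on Pde4b differed between classes did not pass, with edgeR adjusted p of 0.0512 over the ascites classes, 0.437 between spleen B and T cells and 0.989 over the blood classes. The 3 calls in B cells are therefore not shown to set B cells apart.

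Pde4d, the gene with the longest span of the 7 and the one that anchors near kinase A in many cells, rose most in ascites B cells. There it stood at 6.75, 6.74, 4.62 and 6.63 CPM in vehicle mice 1 to 4 and 29.4, 19.8, 33.7 and 31.05 CPM in treated mice 1 to 4, from 27 and 47 UMIs in all. The arms did not overlap, the fold was 4.29 (95% interval 2.66 to 6.91) and the log2 difference 2.10 ± 0.35 (edgeR adjusted p = 2.79e-05). In cluster 0 the summed cells held 9.26 CPM in vehicle and 30.7 CPM in treated mice, from 23 and 46 UMIs. Cluster 13, found mostly in vehicle mice, held 2.29 CPM there, from 4 UMIs. The part of this cluster difference in the rise of Pde4d was not tested. Spleen B cells held 9.57, 7.36 and 7.51 CPM in vehicle mice 1 to 3 and 10.4, 12.6 and 10.1 CPM in treated mice 2 to 4, without overlap, at a log2 difference of 0.50 ± 0.27 that did not pass (edgeR adjusted p = 0.383).

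The effect on Pde4d in spleen B cells minus that in ascites B cells was -1.58 ± 0.45 in log2 (edgeR adjusted p = 0.0332, against the 3.31% of all genes called). This test treats the ascites and spleen samples as independent, although the same mouse numbers occur in both tissues. With the mouse number as a block over both tissues, a fit added after seeing the data, the difference was -1.65 and did not pass (edgeR adjusted p = 0.109). The unblocked difference passed in 5 of 14 fits that left out 1 mouse. It did not pass without ascites treated mice 1, 3 or 4 (edgeR adjusted p = 0.0518, 0.0667 and 0.0904) or ascites vehicle mouse 3 (0.0572). It also did not pass without spleen treated mice 2 or 4 (edgeR adjusted p = 0.0739 and 0.0634) or spleen vehicle mice 1, 2 or 3 (0.129, 0.0513 and 0.0522). With HTODemux calls the edgeR adjusted p was 0.122, and without the filter on low counts 0.0899. In blood B cells Pde4d, at 4.07, 0.913 and 4.76 CPM in vehicle and 4.31, 4.62 and 2.54 CPM in treated mice, had too few counts to test in blood alone. The effect in blood minus that in ascites was -1.96 ± 0.71 in log2 and did not pass (edgeR adjusted p = 0.149, with 2.64% of all genes called).

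Ascites T cells, its highest class, held 71.6, 45.5, 10.3 and 68.2 CPM in vehicle mice 1 to 4 and 91.96, 107, 86.9 and 112 CPM in treated mice 1 to 4. The arms did not overlap, and vehicle mouse 3 lay far below the others, at a log2 difference of 0.83 ± 0.26 (edgeR adjusted p = 0.17), which passed without the filter on low counts (0.0139). Spleen T cells held 9.75, 9.71 and 13.8 CPM in vehicle mice 1 to 3 and 19.3, 19.9 and 26.3 CPM in treated mice 2 to 4, a log2 difference of 0.93 ± 0.26 (edgeR adjusted p = 0.0358). The spleen call was lost without treated mouse 3 (edgeR adjusted p = 0.0696), treated mouse 4 (0.313), vehicle mouse 1 (0.212) or vehicle mouse 2 (0.178). It was also lost with HTODemux calls (edgeR adjusted p = 0.266), with a hashtag share of 90% (0.0503) and at 5% mitochondrial UMIs or fewer (0.692). Of its subsets, spleen CD8 T cells went from 7.29 to 21.01 CPM (1.42 ± 0.43 in log2, edgeR adjusted p = 0.124) and those without Cd4 or Cd8 UMIs from 16.8 to 23.5 CPM (0.46 ± 0.43 in log2), and neither passed. Macrophages held 4.12, 4.44, 4.38 and 9.21 CPM in vehicle mice 1 to 4 and 8.25, 7.38, 9.89 and 11.1 CPM in treated mice 1 to 4, at 0.70 ± 0.29 in log2 (edgeR adjusted p = 0.101), and vehicle mouse 4 lay among the treated mice. Without that mouse the log2 difference was 1.04 and passed (edgeR adjusted p = 0.00666). Migratory dendritic cells held 18.95 ± 7.898 and 18.9 ± 4.87 CPM.

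**Figure D4:**
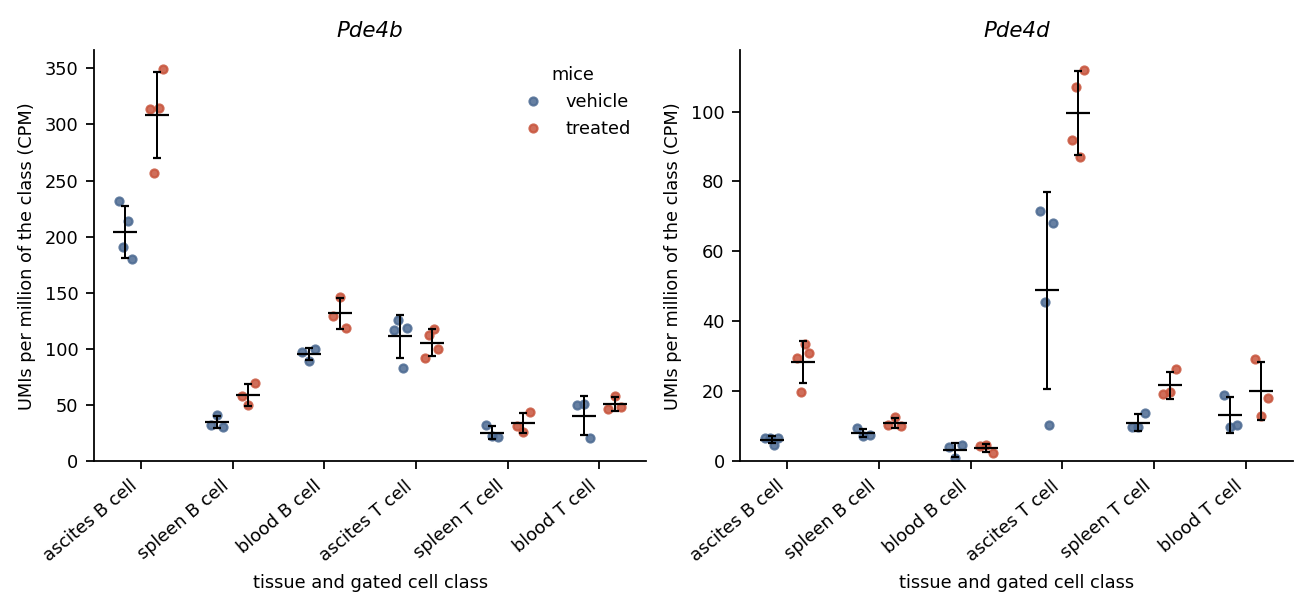
Pde4b (left) and Pde4d (right) in CPM (y axes from 0) in B and T cells of the 3 tissues, 1 point per mouse with the mean and SD. Both genes separate the arms in ascites B cells, and in ascites T cells the Pde4d of vehicle mouse 3 lies at 10.3 CPM.

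Pde2a, which cGMP stimulates to break down cAMP, was the member that fell, in ascites macrophages. It stood at 87.7, 69.3, 67.2 and 114 CPM in vehicle mice 1 to 4 and 41.7, 29.3, 49.1 and 37.6 CPM in treated mice 1 to 4. The arms did not overlap, and the log2 difference was -1.09 ± 0.22 (edgeR adjusted p = 0.00729), a fold of 0.468 (95% interval 0.346 to 0.633). It passed under all 22 alternatives run for it, with log2 differences from -1.38 to -0.82.

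The macrophages of the arms lay in different clusters. Of 1261 vehicle macrophages, 274 were in cluster 10, led by Marco and Vsig4, and 104 in cluster 17, led by Prg4, Alox15 and Gata6, the transcription factor of resident peritoneal macrophages. Treated mice had 1 and 0 cells there. Pde2a was highest in these 2 clusters, at 149 and 157 CPM. In the other clusters of deep vehicle cells it was 35.5 CPM in cluster 6 (311 cells), 51.7 CPM in cluster 8 (298 cells), 40.2 CPM in cluster 16 and 34.9 CPM in cluster 4. Treated cells held 21.1 CPM in cluster 6, 36.5 CPM in cluster 16 and 15.5 CPM in cluster 4, from 17, 19 and 10 UMIs. Of 812 treated macrophages, 527 were in cluster 1, led by Ctsk and Gpnmb, at 40.1 CPM, where vehicle mice had 23 cells at 47.7 CPM. Cluster 15, of low depth (median 701 UMIs in vehicle and 770 UMIs in treated cells), held 56.8 and 90.6 CPM in 66 and 81 cells. The part of this shift in the fall of Pde2a was not tested.

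Pde3b in the same clusters was 34.2 and 65.8 CPM in vehicle clusters 10 and 17 and 29.3 CPM in vehicle cluster 8. Cluster 1 held 9.55 CPM in vehicle cells (3 UMIs) and 50.9 CPM in treated cells. Cluster 6 went from 26.1 to 63.3 CPM and cluster 16 from 36.9 to 55.7 CPM. Cluster 4, led by Ace and Vcan, scored 0.429 for macrophage and 0.412 for classical monocyte markers. It held 73.8 CPM in vehicle and 118 CPM in treated cells. The part of the cluster shift in the rise of Pde3b was not tested. The depth of macrophages also differed between arms: the median UMI count per cell averaged 15979 in vehicle and 10512 in treated mice (exact two-sided permutation test, p = 0.0286, the smallest that 4 against 4 mice can give). The part of depth in the macrophage results was not tested.

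Outside macrophages Pde2a did not pass in the 7 other classes tested. Ascites T cells held 127, 171, 87.96 and 122 CPM in vehicle mice 1 to 4 and 82.2, 111, 99.1 and 114 CPM in treated mice 1 to 4, at -0.35 ± 0.19 in log2, and spleen T cells 52.2, 41.6 and 48.9 CPM in vehicle mice 1 to 3 and 31.9, 38.3 and 44.9 CPM in treated mice 2 to 4, at -0.37 ± 0.17. Ascites B cells held 99.9, 82.2, 102 and 68.7 CPM in vehicle mice 1 to 4 and 76.1, 49.5, 98.2 and 99.7 CPM in treated mice 1 to 4, at -0.08 ± 0.18. These arms overlapped. Blood NK cells held 90.6 ± 19.6 and 114 ± 20.5 CPM, blood T cells 40.7 ± 17.7 and 40.3 ± 2.99 CPM and blood B cells 27.3 ± 4.47 and 26.3 ± 4.93 CPM. Over the ascites classes the effects on Pde2a differed (edgeR adjusted p = 0.00758), but not without treated mouse 4 (0.0883) or vehicle mouse 4 (0.106), nor with HTODemux calls (0.123).

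**Figure D5:**
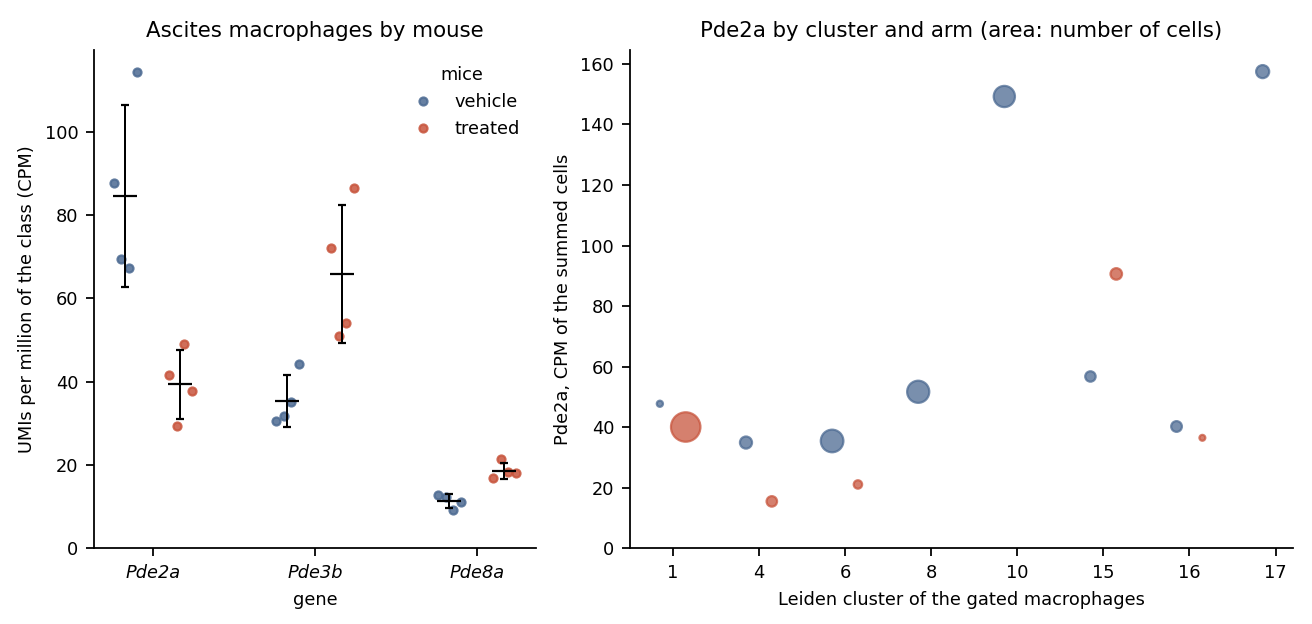
Left: Pde2a, Pde3b and Pde8a in ascites macrophages in CPM, 1 point per mouse with the mean and SD. Right: Pde2a (CPM of the summed cells) by Leiden cluster and arm for groups of at least 20 cells, with the area of a point in proportion to the number of cells. Vehicle clusters 10 and 17 lie at 149 and 157 CPM and have no treated point.

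Pde8a, a high-affinity cAMP enzyme, rose in 2 ascites classes. Macrophages held 12.8, 12.3, 9.23 and 11.1 CPM in vehicle mice 1 to 4 and 16.9, 21.3, 18.3 and 17.97 CPM in treated mice 1 to 4, a log2 difference of 0.75 ± 0.16 (edgeR adjusted p = 0.00411), which did not pass with HTODemux calls (0.118). The arms did not overlap. In cluster 1, which held most treated macrophages, Pde8a was 19.1 CPM in vehicle cells (6 UMIs) and 18.7 CPM in treated cells (133 UMIs). Cluster 6 held 6.93 and 14.9 CPM (34 and 12 UMIs), cluster 4 12.9 and 24.8 CPM and cluster 16 15.6 and 24.98 CPM. The part of the cluster shift in this rise was not tested. The cDC1 held 14.98, 6.93, 11.2 and 12.98 CPM in vehicle mice 1 to 4 and 19.3, 22.95, 21.8 and 18.5 CPM in treated mice 1 to 4, a log2 difference of 0.75 ± 0.24 (edgeR adjusted p = 0.025). Here too the mice were separate, but the call was lost without treated mouse 2 (edgeR adjusted p = 0.0804), treated mouse 3 (0.0622), vehicle mouse 2 (0.097) or vehicle mouse 3 (0.0517).

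With other settings the cDC1 call of Pde8a had an edgeR adjusted p of 0.0742 (HTODemux) and 0.0573 (5% mitochondrial UMIs or fewer), and a DESeq2 Wald adjusted p of 0.108. With at least 50 cells per mouse, which leaves out vehicle mouse 3, it did not pass either. Too few counts for a test were found in cDC2, where Pde8a was 3.604, 3.58, 3.96 and 5.61 CPM in vehicle and 11.1, 11.03, 11.1 and 11.4 CPM in treated mice, without overlap, from 13 and 23 UMIs. Neutrophils, also untested, held 21.9, 16.3, 21.3 and 34.4 CPM in vehicle and 38.1 and 94.6 CPM in 2 treated mice, higher in the treated mice without overlap, from 9 and 8 UMIs. In B cells Pde8a did not pass, at means of 18.9 ± 1.896 and 18.4 ± 6.46 CPM in ascites and 11.98 ± 2.63 and 10.98 ± 2.43 CPM in spleen. The test over ascites classes gave an edgeR adjusted p of 0.268 for a difference between the effects on Pde8a.

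Pde7a, the rolipram-insensitive enzyme abundant in T cells, passed in 0 of 10 classes tested, T cell subsets aside, with log2 differences from -0.22 to 0.32. Its smallest unadjusted p was 0.0922, in spleen T cells, so 0 of the 10 had an unadjusted p under 0.05. Blood B cells held 100.2, 103 and 85.7 CPM in vehicle mice 1 to 3 and 93.1, 101 and 110.3 CPM in treated mice 2 to 4, a fold of 1.09 (95% interval 0.931 to 1.27). Spleen B cells held 62.5, 63.8 and 60.1 CPM in vehicle mice 1 to 3 and 62.9, 50.2 and 58.4 CPM in treated mice 2 to 4, a fold of 0.969 (95% interval 0.828 to 1.13).

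Pde7a in ascites B cells was 94.5, 104, 106 and 90.5 CPM in vehicle mice 1 to 4 and 108, 153, 101 and 108 CPM in treated mice 1 to 4, at 0.13 ± 0.16 in log2, with treated mouse 2 above the rest. In ascites T cells it was 78.1, 105, 129 and 82.5 CPM in vehicle mice 1 to 4 and 102, 187, 83.5 and 113 CPM in treated mice 1 to 4, at 0.32 ± 0.23, and in spleen T cells 91.8, 79.1 and 105 CPM in vehicle mice 1 to 3 and 86.8, 73.1 and 87.8 CPM in treated mice 2 to 4, at -0.22 ± 0.13. The arms overlapped in each of these classes. In the CD8 subset of ascites T cells (n = 3 and 3) they did not: the mean was 90.6 CPM in vehicle and 144 CPM in treated mice. That log2 difference of 0.70 ± 0.28 had an unadjusted p of 0.0229 and did not pass (edgeR adjusted p = 0.488). Pde4a, a cAMP-specific enzyme of low level here, could be tested in 3 classes and passed in 0, with unadjusted p from 0.109 to 0.531. Its means were 8.25 ± 1.97 and 7.18 ± 1.79 CPM in macrophages, 8.86 ± 3.898 and 5.73 ± 2.204 CPM in cDC1 and 10.7 ± 3.65 and 12.1 ± 1.64 CPM in spleen B cells. In ascites B cells, with too few counts to test, Pde4a was 14.9, 12.1, 12.3 and 10.4 CPM in vehicle mice 1 to 4 and 4.91, 4.95, 8.42 and 8.17 CPM in treated mice 1 to 4, without overlap and lower in the treated mice, from 50 and 11 UMIs.

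The summed level of the 7 transcripts was read beside the share of Pde3b. The shares are of the counted UMIs of these 7 genes. They leave out other phosphodiesterases and do not rank the genes by transcript number. The sum in ascites B cells was 581 ± 44.3 CPM in vehicle and 973 ± 45.02 CPM in treated mice (n = 4 each), and Pde3b made up 26.3% and 42.4% of it. In spleen B cells the sum was 176 and 259.5 CPM, with Pde3b at 22.4% and 38.6%. In blood B cells the sum was 264 and 346 CPM, with Pde3b at 11.6% and 20.6%. In macrophages the sum was 299.8 and 301 CPM, while the share of Pde2a went from 27.98% to 13.1% and that of Pde3b from 11.9% to 21.8%. In cDC2 Pde4b made up 80.2% of the sum in vehicle and 57.7% in treated mice, and Pde3b 7.68% and 27.9%.

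Other genes of the cAMP pathway were read from lists chosen with earlier results of these data known. Crem, the CREB target that encodes the inducible repressor ICER, rose in ascites B cells from a mean of 22.9 to 142 CPM, a log2 difference of 2.53 ± 0.22 (edgeR adjusted p = 5.75e-10). It rose by 3.27 ± 0.33 in cDC1, 3.44 ± 0.23 in cDC2, 3.08 ± 0.17 in macrophages and 2.60 ± 0.22 in migratory dendritic cells. In ascites T cells it was 17.7 and 147 CPM (edgeR adjusted p = 0.0682). In spleen B cells it rose from 16.6 to 34.6 CPM (1.17 ± 0.20), and in blood B cells, where Pde3b rose, it stood at 13.3 and 17.3 CPM with overlap (0.43 ± 0.28, edgeR adjusted p = 0.708).

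Over the 20 genes of the CREB arm (kinases, coactivators, factors and inducible genes), 197 gene and class pairs were tested in the 13 classes, and 23 (11.7%) were higher and 20 (10.2%) lower. For all genes, weighted by the tests of the list in each class, these shares were 3.52% and 3.75%. The coactivator Crtc3 rose in macrophages (0.96 ± 0.13), cDC1 (1.09 ± 0.19) and cDC2 (0.93 ± 0.15). The clock gene Per1 fell in ascites B cells (-0.77 ± 0.14), as did Sik1 (-0.53 ± 0.12). In spleen B cells the immediate early genes Fosb (-0.91 ± 0.07), Junb (-0.75 ± 0.07) and Fos (-0.56 ± 0.08) fell. The members of this list thus moved in both directions.

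Of 16 tests of adenylyl cyclases, which make cAMP, 0 were higher and 1 (6.25%) was lower, against 3.73% and 3.99% of all genes weighted in the same way. The 1 was Adcy6 in migratory dendritic cells (-0.57 ± 0.19, edgeR adjusted p = 0.0493). Of 122 tests of cAMP effectors, anchors and exporters, 4 (3.28%) were higher and 6 (4.92%) lower, against 3.79% and 4.09% of all genes. Pkig, a kinase A inhibitor, fell in ascites B cells (-0.96 ± 0.12, edgeR adjusted p = 2.39e-07), cDC2 (-0.86 ± 0.27) and macrophages (-0.52 ± 0.12). Akap13 and Akap7, which anchor kinase A, fell in macrophages (-0.54 ± 0.09 and -0.82 ± 0.17), and the regulatory subunit Prkar2a rose in migratory dendritic cells (1.15 ± 0.27). Of 14 tests of the other phosphodiesterases, 1 (7.14%) was higher and 1 lower, against 5.88% and 6.19% of all genes. Pde7b, the paralogue of Pde7a, rose in macrophages from 3.62 to 14.5 CPM (2.06 ± 0.30, edgeR adjusted p = 0.000285), and Pde1b, which calcium and calmodulin activate, fell in cDC1 from 26.8 to 10.4 CPM (-1.31 ± 0.37, edgeR adjusted p = 0.0254).

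Of 99 tests of Gs-coupled receptors and Gs and Gi subunits, 7 (7.07%) were higher and 8 (8.08%) lower, against 3.54% and 3.77% of all genes. Ramp3, a partner of the calcitonin receptor-like receptor, rose in cDC1 (4.65 ± 0.27), cDC2 (4.68 ± 0.26), ascites T cells (4.17 ± 0.30), macrophages (1.96 ± 0.25) and migratory dendritic cells (1.61 ± 0.17). Adrb1, a beta-adrenergic receptor, fell in macrophages (-2.26 ± 0.27). The acid-sensing receptor Gpr65 rose in cDC1 (0.73 ± 0.12) and migratory dendritic cells (1.47 ± 0.31) and fell in macrophages (-0.39 ± 0.12). Adora2a, the adenosine receptor, fell in migratory dendritic cells (-0.73 ± 0.19). The values in parentheses in this and the preceding lists are log2 differences ± SE from the same edgeR fits, each past an adjusted p of 0.05 unless a larger p is given.

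The genes with the most similar vehicle profile were found by Pearson's r of log2(CPM + 1) over 19 tissue and class profiles, T cell subsets included, among 7624 genes with a mean of at least 10 CPM. The profiles share 2 libraries and some cells, so r is a description. For Pde7a they were Gimap6 (0.98), Gimap8 (0.97) and Crebzf (0.97), and for Pde4b Dazap2 (0.94), Zfp36 (0.94) and Dennd5a (0.94). For Pde3b they were Fam102a (0.90), Ldb1 (0.90) and Tecpr1 (0.90), for Pde2a Lrrc8a (0.90), Msh3 (0.87) and Cd164 (0.87) and for Pde4d Znrf1 (0.93), Rnf19a (0.90) and Plcg1 (0.84). The low-level members had Anapc2 (0.84), Clock (0.83) and Lrrc47 (0.82) for Pde4a and Col4a3bp (0.83), Zscan29 (0.80) and Rnf11 (0.79) for Pde8a.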

How the data were processed

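Single-cell RNA and hashtag libraries were made with 10x Genomics 3′ chemistry, and the deposited values are UMI counts per gene and cell, made with Cell Ranger 6.1.1 on mm10 per the submitters' processing notes. The members and all gene lists were chosen with earlier results of these data known. Here, kept barcodes had 200 or more genes, 500 or more UMIs and no more than 10% of UMIs from mitochondria. A cell was given to a mouse when its top hashtag held at least 80% of at least 20 hashtag UMIs. This step also removes doublets of different mice, while doublets within a mouse stay in. Cells were gated by fixed marker lists (at least 3 markers detected, a score margin of 0.05 over the next list, expression scaled to 10000 UMIs per cell and to each marker's 99th percentile). Clusters came from scanpy 1.11.5 in Python 3.11.15 (2000 variable genes, 30 principal components, 20 neighbours, Leiden resolution 1).

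Counts were summed per mouse, tissue and class where 20 or more cells were present, and tests needed 2 or more mice in each arm. The test was edgeR 4.0.16 (R 4.3.3), quasi-likelihood with TMM, filterByExpr and Benjamini-Hochberg adjustment over all genes of the class, with a threshold of 0.05. Differences between tissues or classes were interaction terms, with the mouse as a block for classes and for spleen against blood, where the same number was taken as the same animal, and without a block for ascites against spleen or blood. Scripts were tested on simulated counts. Besides these choices, 13 other settings were listed and 4 were added after seeing the data (without the low-depth cluster, macrophage and monocyte gates summed, single clusters, a mouse block over ascites and spleen), with DESeq2 1.42.0 and HTODemux of Seurat 5.3.0 among them. Intervals (95%) are the log2 difference plus or minus the normal quantile times its SE. The genes named were the 7 members, up to 4 genes per pathway list and class past the threshold by smallest adjusted p, Crem always, and the 3 most similar profiles per member. The result for 1 gene of the pathway lists is not reported here. P-values set a difference against the spread between mice. The mice of a tissue shared 1 library, so no spread between libraries enters the tests within a tissue.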

Additional observations from a re-analysis of the deposited data

Results flagged for a closer look

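In 4 of 56 groups of 4 mice, 1 mouse stood apart from the other 3 by Dixon's criterion, which chance reaches in about 1 in 20 groups. Pde4d in ascites B cells of vehicle mouse 3 was 4.616 CPM, with the others between 6.632 and 6.752 CPM. Pde7a in ascites B cells of treated mouse 2 was 153.3 CPM, above the others at 101 to 108 CPM. Pde3b in ascites T cells of vehicle mouse 4 was 172.1 CPM, above the others at 133.4 to 136.5 CPM, and still below every treated mouse. Pde4d in ascites macrophages of vehicle mouse 4 was 9.211 CPM, above the others at 4.12 to 4.444 CPM.

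The effect on Pde4d in spleen B cells minus that in ascites B cells was -1.582 in log2, and did not pass with a mouse block over both tissues. The effects over the ascites classes differed for Pde2a (edgeR adjusted p = 0.00758) and for Pde3b (edgeR adjusted p = 0.00052). In spleen, the effect on Pde3b differed between B cells and T cells (edgeR adjusted p = 1.68e-05).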

How the results depend on the processing

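Of the 15 calls, 12 passed without each mouse in turn, 7 passed under all the settings listed at the outset that gave a value and 0 changed direction. Limiting cells to 5% mitochondrial UMIs took the members called higher in spleen from 3 to 0 and in blood from 2 to 0. In blood the count was 1 with HTODemux and 1 to 2 without each mouse in turn. It was 0 with DESeq2's Wald test, where Pde4b did not pass and Pde3b in blood B cells had no adjusted p, so that call was not tested (44 of 55 combinations had a value). The 1 member whose effect differed between ascites and spleen became 0 with HTODemux and without the filter on low counts. It also became 0 with a mouse block over ascites and spleen, and 0 to 2 without each mouse in turn. At 5% mitochondrial UMIs or fewer the count was 0 too, but Pde4d had no value there, so its difference was not tested. The 3 differences among classes became 6 with Leiden clusters, 5 with 1 more marker, 5 with at least 10 cells per mouse and 2 to 5 without each mouse in turn. Fewer cells were left at 5% mitochondrial UMIs or fewer. The cause of these changes in the counts was not tested. The settings without each mouse gave 8 to 10 higher and 1 lower in ascites and 2 to 3 higher in spleen. Depth limits the low members: 36 of 91 combinations had too few counts for a test.

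The mouse numbers are hashtag labels, and the deviations of same-numbered vehicle and treated mice had correlations from -0.05 to 0.25 over genes. In no class did every pair exceed 0.1, although the 4 pairs of ascites T cells were all above 0 (0.02 to 0.25), so the number was not taken to pair the mice. In ascites T cells 3 of 4 vehicle mice correlated best with their own number, and 0 to 1 of 4 in the other classes. With the number as a replicate block, the count in ascites was 12 higher (9 without it) and 1 lower, in spleen 2 (3 without it) and in blood 2. The calls gained were Pde3b in ascites T cells (0.67 in log2, edgeR adjusted p = 0.0112), Pde4d in ascites T cells (0.90, 0.037) and Pde4d in macrophages (0.81, 0.036), and the call lost was Pde4d in spleen T cells (0.68, 0.559). The differences between tissues and among classes were not run with this block or with DESeq2's Wald test.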
